A study of Homo sapiens with 2 samples.

Results

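The GIMAP cluster is a row of 7 genes of the GTPase of immunity-associated protein family, in band q36 of human chromosome 7. Its accessible regions were taken as every ATAC-seq peak whose summit lay at chr7:150120000-150470000 of hg19, an interval of 350 kb. This rule gave 10 of 25189 peaks in the Jurkat list and 7 of 24603 in the RPMI-8402 list, which merged into 12 of 32792 regions. ATAC-seq cuts open DNA with the Tn5 transposase and sequences the fragments. Both lines, Jurkat and RPMI-8402, are established and human. They come from T-ALL, the acute lymphoblastic leukaemia of developing T cells, and each is held as 1 library. No knock-out, transgene or drug is named in the labels for either line. The labels give both the same medium, RPMI-1640 with tetracycline-free serum.

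GIMAP proteins are GTPases of lymphocytes that sit mostly on intracellular membranes, and several are known for keeping T cells alive. Loss of GIMAP5 depletes peripheral T cells in rodents. An enhancer within this cluster is known from earlier work on T-ALL as a target of the oncogenic transcription factor TAL1. In the direction of rising coordinates the genes follow one another as GIMAP8, GIMAP7, GIMAP4, GIMAP6, GIMAP2, GIMAP1 and GIMAP5. In the RefSeq annotation, GIMAP6 is the 1 member on the minus strand, and the nearest named genes outside the row are ZNF775 beyond GIMAP8 and TMEM176B beyond GIMAP5. The peaks are on hg19 and the gene models used here on GRCh38.p14, so peaks are given by position. Whether a peak lies in a promoter, exon, intron or UTR, and whether the lines show peaks at T-cell marker genes, was not analysed here.

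The DNA just ahead of each gene's start is shown because promoters are where accessibility of a gene is usually read, and because these stretches differ in the short core GGAA. That core is the binding motif of ETS factors, a family that is active in T cells. The 100 bases before each start are from RefSeq on GRCh38.p14, 5′ to 3′ on the gene's own strand, with each GGAA and its reverse complement TTCC in capitals. All 7 members matched an entry. These positions were not converted to hg19, so they are not set against the positions of the peaks here.
GIMAP8 (chr7:150450530-150450629, plus strand): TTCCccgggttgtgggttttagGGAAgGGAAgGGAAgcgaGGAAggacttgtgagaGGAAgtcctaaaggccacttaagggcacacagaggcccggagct
GIMAP7 (chr7:150514772-150514871, plus strand): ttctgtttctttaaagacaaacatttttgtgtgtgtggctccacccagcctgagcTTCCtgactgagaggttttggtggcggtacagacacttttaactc
GIMAP4 (chr7:150567290-150567389, plus strand): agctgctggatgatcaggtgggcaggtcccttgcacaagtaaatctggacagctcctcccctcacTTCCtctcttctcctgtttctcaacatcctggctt
GIMAP6 (chr7:150632386-150632485, minus strand): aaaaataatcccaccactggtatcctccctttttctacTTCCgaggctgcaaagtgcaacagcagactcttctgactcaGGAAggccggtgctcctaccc
GIMAP2 (chr7:150685606-150685705, plus strand): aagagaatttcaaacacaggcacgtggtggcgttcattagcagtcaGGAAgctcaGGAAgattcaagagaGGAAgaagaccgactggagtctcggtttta
GIMAP1 (chr7:150716513-150716612, plus strand): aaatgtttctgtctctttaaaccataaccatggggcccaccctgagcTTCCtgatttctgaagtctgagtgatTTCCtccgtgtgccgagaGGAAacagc
GIMAP5 (chr7:150737318-150737417, plus strand): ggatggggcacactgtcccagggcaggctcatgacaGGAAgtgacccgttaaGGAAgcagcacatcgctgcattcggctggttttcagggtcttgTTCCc

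All 7 GIMAP promoters were poor in CpG dinucleotides, the feature that marks the promoters of many widely expressed genes. Counted over 300 bases, from 250 before to 50 after the start, GIMAP8 had 8 CpG and GIMAP7 had 5. GIMAP2, GIMAP1 and GIMAP5 had 4 each, and GIMAP4 and GIMAP6 had 3 each. The median over 27326 promoters of the same table was 14 (25th to 75th percentile 3 to 28), so every member lay below the median and at or above the 25th percentile. Their G and C content was 40.3% to 50.7%, against a median of 58.3%.

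**Figure D1:**
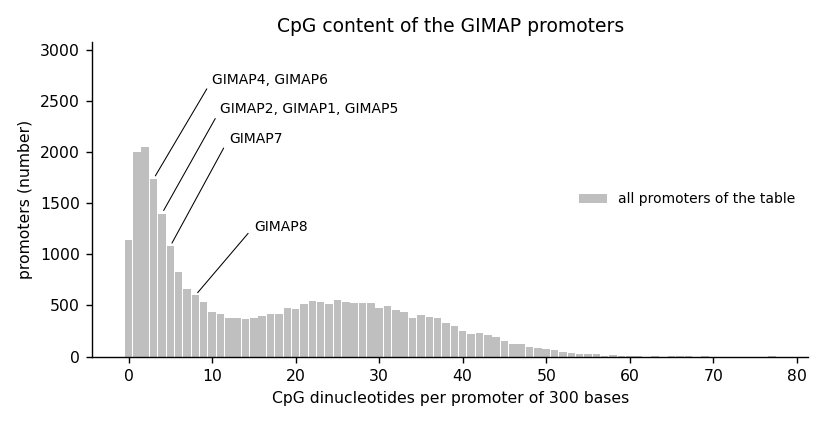
CpG dinucleotides per promoter of 300 bases (horizontal axis) and number of promoters (vertical axis), for all 27326 promoters as grey bars, with the bars that hold the members marked by name. The members sit at 3 to 8 CpG, in the left group of promoters and below the median of 14.

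The core GGAA, counted on both strands, varied widely between the members. GIMAP8 and GIMAP5 had 9 matches each, more than 98.3% of all promoters, and GIMAP6 had 7. GIMAP2 and GIMAP1 had 5 each, GIMAP7 had 2 and GIMAP4 had 1, against a median of 3. At least 1 match was held by 95.5% of all promoters, so the number and not the presence sets the members apart from one another. In the printed stretch of GIMAP8, 5 of the 6 matches read GGAA on the gene's strand. The longer form CCGGAAG, which contains GGAA, had no match in any member. It was held by only 10.7% of all promoters, so its absence from so few members is not unusual.

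Other cores searched on both strands are held by few promoters in general, and few or none of the members held them. The RUNX core TGTGGT (13.1% of all promoters), its longer form TGTGGTT (4.28%) and the GATA core AGATAA (10.5%) had no match in any member. The E-box CAGCTG (17.7% of all promoters) matched once, in GIMAP5. The E-box CAGATG (14.8%) matched once in GIMAP6 and once in GIMAP2. The TATA box TATAAA (11.95%) matched once, in GIMAP7. At such shares, few or no matches are usual among so few promoters, so these cores do not set the members apart. A match is a run of letters and not a measured site, and a missing match says nothing about the factor.

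The promoters of GIMAP7 and GIMAP1 shared the longest run among the 21 pairs of members, looking at the 250 bases before the start. It was 14 bases long, cctgagcttcctga, and began 52 bases before the start of GIMAP7 and 60 bases before that of GIMAP1. In both printed stretches the run holds a TTCC. The other pairs shared at most 10 bases, with a median of 8. GIMAP1 shares its start with the read-through gene GIMAP1-GIMAP5, so the same promoter serves both annotations.

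Accessibility along the cluster was weak to moderate in both lines. The measure used is the summit pileup, the number of sequenced fragments that cover the highest base of a peak, solved from the deposited fold and p-value. Cluster pileups ran from 11 to 31 in Jurkat, with a median of 17, and from 15 to 43 in RPMI-8402, with a median of 22. Over each whole list the median was 37 in Jurkat and 38 in RPMI-8402. All 10 Jurkat peaks and 6 of 7 RPMI-8402 peaks lay below the median of their list. No value carries a replicate error and no difference between the lines was tested, since each line has 1 library. The intervals printed are 95% intervals that cover counting error only, and copies made by PCR would make them too narrow.

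**Figure D2:**
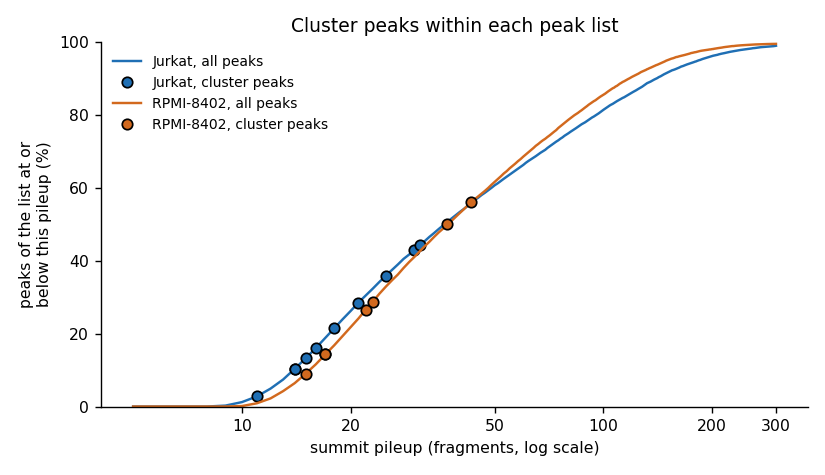
Summit pileup in fragments on a log scale (horizontal axis) and percent of the peaks in a list at or below it (vertical axis), for all peaks of each line as curves and for the cluster peaks as points. The points run from 11 to 43 fragments, and 1 of the 17, the RPMI-8402 peak with 43, lies above the median of its list.

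The deposited fold enrichments were low for these lists in both lines, while the widths were below the list median mainly in Jurkat. The fold enrichment over background, the authors' own value for each peak, was 4.15 to 7.85 in Jurkat and 3.84 to 5.74 in RPMI-8402. It was below the list's median of 7.76 in 9 of 10 Jurkat peaks, and below the median of 7.27 in all 7 RPMI-8402 peaks. The median width was 495 bp in Jurkat and 700 bp in RPMI-8402, beside 611 and 694 bp over the whole lists, and 7 of 10 Jurkat but 3 of 7 RPMI-8402 peaks were narrower than the median of their list. Together the cluster peaks covered 5137 bp in Jurkat and 5243 bp in RPMI-8402, nearly the same length with fewer and wider peaks in RPMI-8402.

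Of the 12 regions, 5 were shared by the lines, 5 were Jurkat-only and 2 RPMI-8402-only, with an overlap of at least 1 bp counted as shared. Among the Jurkat cluster peaks 5 of 10 had no RPMI-8402 partner, where 32.6% of all Jurkat peaks had none. In RPMI-8402 2 of 7 had no Jurkat partner, where 31.9% of all its peaks had none. With so few members these shares are wide. The shared share was 50% in Jurkat (exact binomial interval 18.7 to 81.3%) and 71.4% in RPMI-8402 (29.0 to 96.3%), and both intervals hold the share of the whole list. The cluster peaks fell in the weaker classes of both lists. In the strength class of each Jurkat cluster peak, 10 classes of equal size by −log10 q, 25.4% to 63.1% of all Jurkat peaks were shared. By region, numbered from the GIMAP8 end, this was 25.4% at 4 and 6, and 32.7% at 7, 9, 10 and 11. It was 42.6% at 5 and 12, 51.3% at 8 and 63.1% at 3. For the RPMI-8402 cluster peaks these class shares were 26.9% at 11, 37.7% at 1, 3 and 10, 45.4% at 12 and 65.6% at 2 and 7. The whole-list shares are therefore not a like comparison for peaks this weak, and an excess of unshared peaks cannot be read from them.

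The regions are listed here in their order along the row of genes, and whether that order is uneven was not tested. At regions 4, 5, 6 and 9 of Jurkat only, numbered from the GIMAP8 end, a missing RPMI-8402 call is not distinguishable from equal accessibility, as given below. From the GIMAP8 end the order began with 2 regions of RPMI-8402 only, then the first shared region, then 3 regions of Jurkat only. A second shared region followed, then 2 more of Jurkat only, and the last 3 regions, at the GIMAP5 end, were all shared. Below the first shared region Jurkat had no summit for 93.7 kb, from 150118397 to 150212119, and RPMI-8402 had 2 there. Above it RPMI-8402 had no summit for 149.04 kb, from 150212263 to 150361298, and the 3 Jurkat-only peaks stood in that space. Such spaces are common. Of all spaces between neighbouring summits, 30.7% in Jurkat and 22.2% in RPMI-8402 were at least as long.

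**Figure D3:**
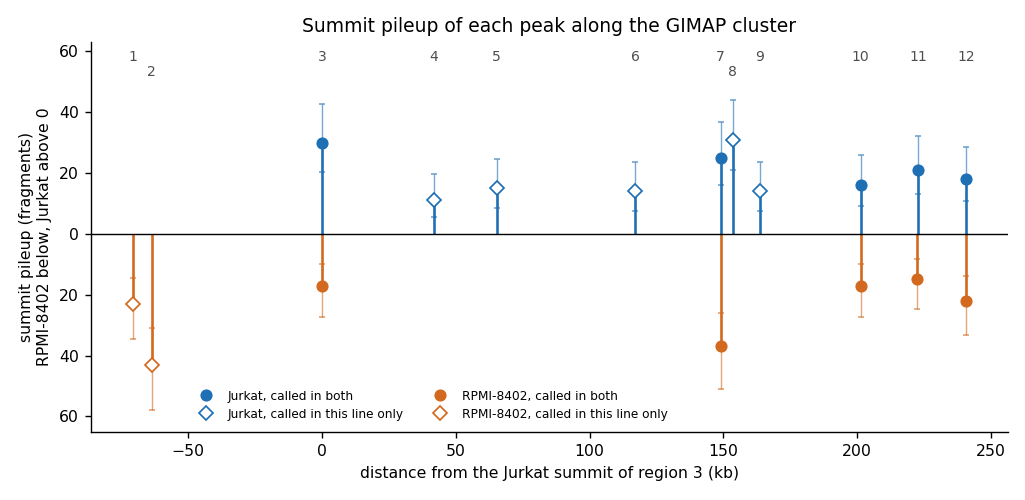
Distance in kb from the Jurkat summit of region 3 (horizontal axis) and summit pileup in fragments (vertical axis, Jurkat above and RPMI-8402 below 0), with 95% Poisson intervals. Filled circles are peaks called in both lines and open diamonds peaks called in 1 line. Regions 1 and 2 are open on the RPMI-8402 side, regions 4, 5, 6, 8 and 9 on the Jurkat side, and regions 10 to 12 are filled on both.

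Regions 1 and 2, at the GIMAP8 end, were called in RPMI-8402 only. Region 1 at chr7:150140764-150141678 had a pileup of 23 (95% Poisson interval 14.6 to 34.5) over a background of 4.70 fragments. Region 2 at chr7:150147847-150149057 had a pileup of 43 (31.1 to 57.9) over a background of 6.67 and was 1211 bp wide. By pileup region 2 was the strongest peak of either line in the cluster, though 4 Jurkat peaks had a higher deposited fold than its 5.74. It was also the widest, wider than 90.7% of the RPMI-8402 list. The nearest Jurkat peaks lay 22140 bp from region 1 and 29223 bp from region 2. Jurkat had no called peak in this stretch.

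Region 3 was the first called in both lines. It lay at chr7:150211902-150212664 in Jurkat, with a pileup of 30 (20.2 to 42.8), and at chr7:150211946-150212342 in RPMI-8402, with a pileup of 17 (9.90 to 27.2). The RPMI-8402 peak lay wholly inside the Jurkat peak, with 397 against 763 bp of width and summits 144 bp apart. The deposited fold was 7.85 in Jurkat, the highest of the cluster, and 5.05 in RPMI-8402. Scaled so that the median of all 16494 one-to-one pairs is 1, the RPMI-8402 to Jurkat ratio was 0.637 (exact conditional interval 0.330 to 1.19). Jurkat was the higher line here by value under every scaling tried, but the interval holds 1.

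Regions 4, 5 and 6, in the middle of the cluster, were called in Jurkat only and were all weak. Region 4 at chr7:150253594-150254029 had a pileup of 11 (5.49 to 19.7), the lowest of the cluster. Region 5 at chr7:150277174-150277548 had a pileup of 15 (8.40 to 24.7). Region 6 at chr7:150329267-150329557 had a pileup of 14 (7.65 to 23.5) and, at 291 bp, was the narrowest peak of the cluster. Regions 4 and 5 stood on the lowest background of the Jurkat library, 1.59 fragments, so the DNA around them held little signal. RPMI-8402 had its closest peaks at distances of 41251, 64831 and 31302 bp.

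Region 7 was, by value, the shared region with the largest ratio in favour of RPMI-8402. It lay at chr7:150360894-150361248 in Jurkat, with a pileup of 25 (16.2 to 36.9), and at chr7:150360860-150361866 in RPMI-8402, with a pileup of 37 (26.1 to 51.0). The RPMI-8402 peak was 2.84 times as wide, 1007 against 355 bp, the largest contrast in width among the shared regions. The centred RPMI-8402 to Jurkat ratio was 1.67 (0.976 to 2.89), above 1 by value under every scaling tried, with 1 just inside the interval. The background was high in both lines, 5.26 fragments in Jurkat and 5.88 in RPMI-8402, or 3.31 and 3.0 times the lowest value of each library.

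Regions 8 and 9 followed region 7 closely and were called in Jurkat only. Region 8 at chr7:150365223-150365920 had a pileup of 31 (21.1 to 44.0), the highest of the Jurkat cluster peaks, and lay 3356 bp from the RPMI-8402 peak of region 7. Region 9 at chr7:150375595-150376183 had a pileup of 14 (7.65 to 23.5). The Jurkat summits of regions 7, 8 and 9 followed one another in steps of 4.52 and 10.2 kb, the most closely spaced Jurkat summits of the cluster. In RPMI-8402 the same stretch held the single wide peak of region 7. Signal that runs on below the calling limit in either line was not measurable from the peak lists.

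Regions 10, 11 and 12, toward the GIMAP5 end, were called in both lines with similar pileups. Region 10 at chr7:150413278-150413823 had a Jurkat pileup of 16 (9.15 to 26.0) and an RPMI-8402 pileup of 17 (9.90 to 27.2). Region 11 at chr7:150434462-150435101 had 21 (13 to 32.1) and 15 (8.40 to 24.7), and region 12 at chr7:150452747-150453190 had 18 (10.7 to 28.4) and 22 (13.8 to 33.3). These positions are those of the Jurkat peaks. The summits of region 12 lay 2 bp apart, the closest match of the cluster, while those of regions 10 and 11 lay 145 and 230 bp apart. Over all pairs the median distance was 67 bp. The centred ratios were 1.195 (0.568 to 2.53), 0.804 (0.385 to 1.64) and 1.38 (0.704 to 2.72). With the deposited fold in place of the pileup, region 12 had a log2 ratio of −0.29, slightly below the median of all pairs on that scale (−0.24), while region 10, at −0.07, stayed above it.

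No shared region of the cluster differed by as much as 2-fold in the centred pileup. This held for 0 of 5 toward Jurkat, where 4.89% of all pairs reached 2-fold, and for 0 of 5 toward RPMI-8402, where 9.21% did. All 5 intervals held 1. The pileups of the 5 regions summed to 110 in Jurkat and 108 in RPMI-8402, a centred ratio of 1.10 (0.839 to 1.45). The lines were not separated at the shared regions by these intervals, and at this depth a difference inside the interval was not detectable.

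**Figure D4:**
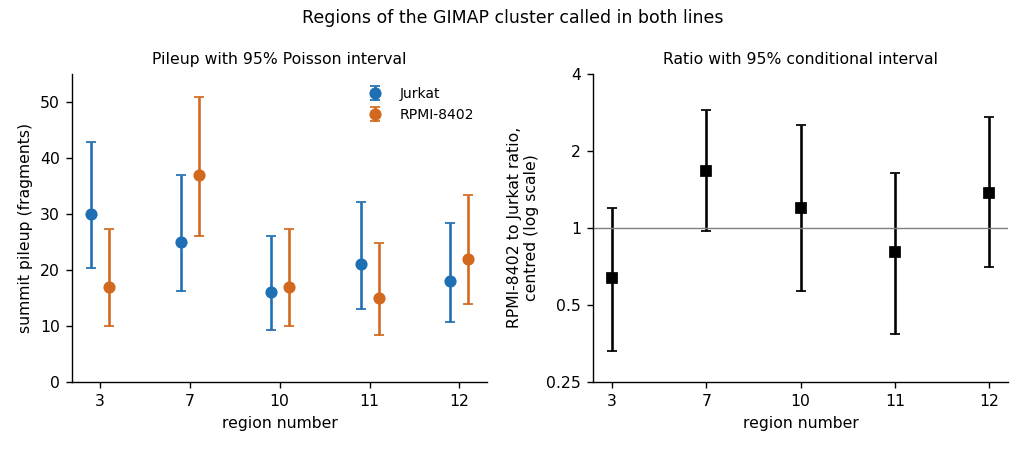
Left, summit pileup in fragments (vertical axis) of the 5 shared regions (horizontal axis) in each line, with 95% Poisson intervals. Right, the RPMI-8402 to Jurkat ratio, centred on the median of all pairs and drawn on a log scale, with 95% exact conditional intervals, which all cross the line at 1. Regions 3 and 11 lie below 1 and regions 7, 10 and 12 above it.

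How far a region called in 1 line stood from the calling limit of the other line differed among the 7 such regions. Each pileup was carried to the other line at the median ratio of all pairs and set beside the smallest pileup that reaches a −log10 p of 5 there. Over the lowest background that limit is 9 fragments in Jurkat and 10 in RPMI-8402. Where the peak's own background was higher, a limit was also computed at that background, scaled by the ratio of the lowest backgrounds. The peak's Poisson interval was carried over with it. Region 4 would carry over at 9.78 fragments (4.88 to 17.5), under the limit of 10. Region 6 would carry over at 12.4 (6.80 to 20.9), under the limit of 13 at its scaled background. Regions 5 and 9 would carry over at 13.3 (7.46 to 21.99) and 12.4 (6.80 to 20.9), and both intervals hold the limit of 10. A missing RPMI-8402 call at these 4 weak regions is thus not distinguishable, at this depth, from equal accessibility in both lines.

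Regions 1 and 2, both of RPMI-8402, had carried intervals above both limits. Region 2 would carry over to Jurkat at 48.4 fragments (35.0 to 65.2) against limits of 9 and 18, the widest margin of the 7. Region 1 would carry over at 25.9 fragments (16.4 to 38.8) against limits of 9 and 15. Region 8 lay between the cases. It would carry over to RPMI-8402 at 27.6 fragments (18.7 to 39.1), above the limit of 10 but with an interval that reaches the limit of 19 at the scaled background. At the median ratio of the chromosome 7 pairs it would carry over at 23.1. The true local background of the line without the peak is not in its list, so the limits are estimates. The carried intervals cover counting error of the called peak only. They leave out counting error in the other line and the spread of ratios among all pairs (25th to 75th percentile −0.40 to 0.46, centred log2). A margin above the limits therefore does not settle that accessibility differed there, and no difference was tested.

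**Figure D5:**
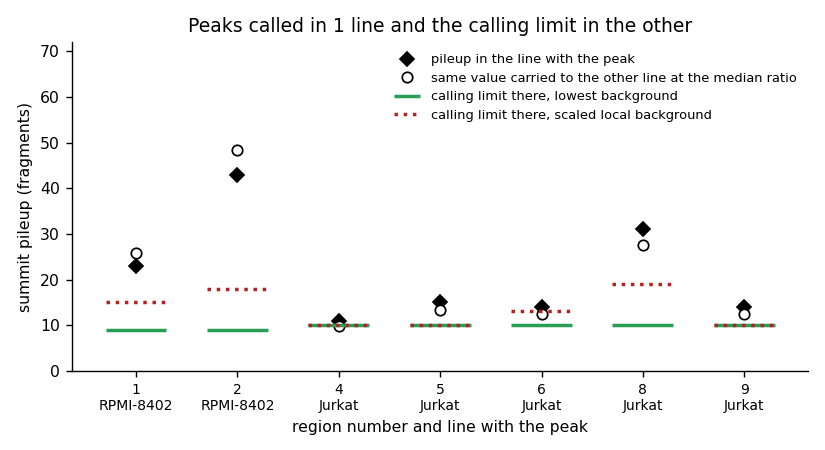
Summit pileup in fragments (vertical axis) of the 7 regions called in 1 line (horizontal axis, with that line), as diamonds, and the same value carried to the other line at the median ratio, as open circles. The solid and dotted bars are the calling limits in the other line at its lowest background and at the scaled local background. The circles of regions 1, 2, 5, 8 and 9 lie above both bars, while those of regions 4 and 6 lie under at least 1 of them. The carried intervals, which are not drawn, hold the limit of 10 for regions 5 and 9.

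Set beside its surroundings, the cluster held lower pileups in both lines. The 350 kb below it held 8 Jurkat and 8 RPMI-8402 peaks, with median pileups of 38.5 and 43, and the 350 kb above it held 17 and 15, with medians of 44 and 46. Of the Jurkat peaks, 7 of 8 below and 14 of 17 above were shared, beside 5 of 10 in the cluster. Of the RPMI-8402 peaks, 6 of 8 below and 14 of 15 above were shared, beside 5 of 7. The flank peaks were stronger. Their median −log10 q was 17.4 below and 17.1 above in Jurkat, against 7.62 in the cluster. In RPMI-8402 it was 14.1 and 15.9, against 7.18. Sharing was not compared at equal strength, so these counts do not separate position from strength. The median background under the peaks was 2.42 fragments in the cluster in Jurkat, and 6.73 and 7.55 in the flanks. In RPMI-8402 it was 3.17 in the cluster, and 5.81 and 8.06 in the flanks. This background was solved from fold and p at each peak, and fragments away from the peaks were not counted separately. The cluster was still rich in peaks for chromosome 7. Of 389 windows of 350 kb there with a peak in either line, 19 held at least 10 Jurkat peaks and 35 at least 7 RPMI-8402 peaks, while the medians were 3 and 2.

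More Jurkat than RPMI-8402 peaks were found in the wider region as well. Over the whole of chromosome 7, an excess of at least 3 Jurkat peaks was found in 39 of the 389 windows, the cluster's own among them. Within 5 Mb on either side, the cluster left out, the lists held 133 Jurkat and 98 RPMI-8402 peaks. On the log2 scale the centred pileup ratio, RPMI-8402 over Jurkat, had a median of −0.21 over the 81 pairs in these 5 Mb and −0.26 over the 845 pairs of chromosome 7. It was 0.26 over the 5 pairs of the cluster, whose values ran from −0.65 to 0.74. Copy number of this stretch in the 2 lines was not tested. The number of cells or gene copies behind a pileup and the openness of each copy cannot be told apart here.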

How the data were processed

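Both libraries were paired-end ATAC-seq of untreated cells as far as the labels go, and 1 peak list per library was deposited. No replicate lists were pooled here, and whether reads were merged before peak calling is not given in the sources used. The submitters' processing notes name the build hg19, Bowtie2, SAMtools, Picard and MACS2 2.1.1.2016030. Roles, parameters, read filters and library totals: not given in the sources used here. For each peak the authors deposited a fold over background (a ratio), the −log10 p-value and −log10 q-value, and a score, which is 10 times the −log10 p-value cut to a whole number.

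Pileup and background were solved from fold and p, with 1 added to both before their ratio was taken, as MACS2 is known to do, and the p-value read as a Poisson upper tail. The pileup came out whole, within 0.01, in 100% of peaks of both lists. Depth is known only as a ratio, 1.04 times as many fragments in RPMI-8402, from the lowest backgrounds (1.59 and 1.96) and narrowest peaks (261 and 309 bp). Mitochondrial peaks were left out. Python 3.11.15, scipy 1.17.1 and bedtools 2.31.1 were used, and the scripts were tested on simulated data. The genes and the interval were chosen with earlier results of these data known. All peaks in the interval are named. Alternatives covered the overlap rule, the threshold, the interval's edges and the scaling.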

Additional observations from a re-analysis of the deposited data

How the results depend on the processing

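With both lists held to −log10 q of at least 10, the cluster kept 3 Jurkat and 2 RPMI-8402 peaks. Of these 0 Jurkat and 0 RPMI-8402 peaks were shared, so 3 Jurkat peaks stood alone. Set against the whole other list, such peaks were shared in 2 cases and unshared in 1 in Jurkat, and shared in 1 case and unshared in 1 in RPMI-8402. The fall in numbers follows from the threshold, as most cluster peaks are weak. The log2 ratio of summed pileups at the shared regions was 0.14, and it was −0.33 when pileups were divided by the lowest background, −0.20 on the deposited fold, −0.08 by estimated fragments and 0.40 when centred on chromosome 7. With unscaled pileups it was −0.03. The median of all pairs is then −0.47 by the lowest background, −0.24 on the deposited fold, −0.23 by estimated fragments and −0.17 unscaled, so the negative signs go with a shift of the whole list and say nothing of the cluster alone. In all, 10 of 36 alternative values for the counts and the summed ratio moved, and 26 stayed within 1.5 times or within the counting interval, as did all 37 for single regions, 7 of which, the pileups carried to the other line at the chromosome 7 ratio, were chosen after seeing the data. Moving both edges of the interval by 20 kb, a reciprocal overlap of 50% and the summit rule are among the latter. Part of this count was fixed in advance. Joining overlapping peaks into regions could not change a ratio, as no cluster region held more than 1 peak per line. Each scaling other than the deposited fold shifts all regions by the same amount, so these values are not independent. The largest such shift, −0.47 by the lowest background, is smaller than the reach of every single region's counting interval to either side. The chromosome 7 shift is smaller still. Apart from the deposited fold, the values for single regions therefore could not move, and their count is no measure of robustness. No paired analysis was possible because there is a single library of each line, which also leaves no replicate to drop.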

Other observations

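The peak nearest to the interval outside it was in Jurkat, at chr7:150118284-150118623 of hg19, with its summit 1604 bp below the lower edge, a pileup of 21 and no RPMI-8402 partner. With the interval widened by 20 kb at each end the cluster held 13 Jurkat and 8 RPMI-8402 peaks, of which 6 and 2 were unshared. Above the cluster the next summit came 142.8 kb after the last one in Jurkat and 121.3 kb after it in RPMI-8402. Of all spaces between neighbouring summits, 20.9% in Jurkat and 27.1% in RPMI-8402 were at least this long.

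Peak shape varied within the cluster. The summit of region 6 lay 13 bp from the lower edge of a peak of 291 bp, and that of region 4 lay 397 bp into a peak of 436 bp, so both of these peaks were one-sided. Summits away from the middle also occurred in shared peaks, as in the RPMI-8402 peaks of regions 3 and 10. How common such summits are over the whole lists was not computed.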
